A study of Rattus norvegicus with 6 samples.

Results

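The genes described here are 8 genes of MHC class II antigen presentation in rat renal cortex: Cd74, RT1-Da, RT1-Db1, RT1-Ba, RT1-Bb, RT1-DMa, RT1-DMb and Ciita. They were chosen by name, found on the arrays by matching each probe's accession to a RefSeq symbol, and 7 of the 8 were tested among 31179 genes, of which 12276 had a symbol. The renal cortex came from male Sprague-Dawley rats of the outbred Crl:CD(SD) stock, bought at 5 weeks of age. The vehicle group was 3 rats given corn oil for 4 weeks, and the treated group was 3 rats given benzyl acetate, a fragrance ester, at 1000 mg/kg/day for 4 weeks. All 6 rats ate the same basal diet, and each animal's total RNA was labelled with Cy3 and hybridised to its own 1-colour Agilent array. Levels are log2 of the processed signal minus the log2 of that array's 75th percentile, so a level of 1 is a signal 2 times the 75th percentile. A probe has its own binding efficiency, so levels are compared between arrays and never between genes.

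MHC class II molecules are pairs of an alpha and a beta chain that carry peptides from endosomes to the cell surface, where CD4 T cells read them. In the rat the RT1-D and RT1-B molecules do this, the counterparts of HLA-DR and HLA-DQ in humans. Cd74 encodes the invariant chain, which fills the groove until the endosome, where the RT1-DM pair exchanges its remnant for peptide, and Ciita encodes the co-activator on which transcription of all these genes depends. In kidney the bulk of class II is carried by dendritic cells and macrophages between the tubules, and tubular and endothelial cells can be induced to express it. Class II chains are also among the most polymorphic genes of a mammal, so animals of an outbred stock can carry different sequences under the same probe.

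By their order in the GRCr8 assembly the class II chains lie side by side in the sequence RT1-Da, RT1-Db2, RT1-Db1, RT1-Ba, RT1-Bb and RT1-DOb, then Tap2, Psmb8, Tap1 and Psmb9 of the class I pathway, then RT1-DMb and RT1-DMa, while Cd74 and Ciita lie on other chromosomes. Promoter sequence was at hand for 6 of the 8 genes. The 5 stretches below are shown because their shared elements are what the class II chains have in common upstream of their starts. They are from RefSeq, build GRCr8, and each is printed 5′ to 3′ along the gene. Capitals mark matches to TGATTGG, the core of the Y box bound by NF-Y, to ACNGATG, part of the X box bound by RFX, and to TGACGTCA, a CREB-type site.

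RT1-Da, chr20:4515316-4515382, plus strand: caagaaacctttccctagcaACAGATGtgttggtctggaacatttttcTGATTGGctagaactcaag
RT1-Db1, chr20:4560226-4560292, minus strand: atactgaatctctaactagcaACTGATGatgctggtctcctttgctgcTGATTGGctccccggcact
RT1-Ba, chr20:4576964-4577030, plus strand: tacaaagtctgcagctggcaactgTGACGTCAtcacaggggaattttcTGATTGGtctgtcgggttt
RT1-Bb, chr20:4604163-4604229, minus strand: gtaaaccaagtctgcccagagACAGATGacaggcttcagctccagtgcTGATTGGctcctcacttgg
RT1-DMa, chr20:4712383-4712449, minus strand: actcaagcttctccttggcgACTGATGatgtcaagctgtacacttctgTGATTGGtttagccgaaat

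Over the 250 bases before the start, searched on both strands, 5 of these 6 promoters held TGATTGG, against 6.42% of 33469 promoters of the same length. The ACNGATG element was in 4 of 6, against 8.55%, and TGACGTCA was in RT1-Ba alone, against 1.59%. In the 4 promoters with both of the first 2 elements, 20 or 21 bases lay between them, and in RT1-Ba 16 bases lay between TGACGTCA and TGATTGG. The Cd74 window held none of the 3 strings. The strings were chosen with these sequences in view, and a match is a description of letters and not of binding.

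The 7 tested members were well above background in all 6 kidneys, and none passed the test between benzyl acetate and vehicle. Limma, a linear model with moderated variances fitted to all genes, called 0 of the 7 tested members at an adjusted p under 0.05, where it called 0% of the 31179 genes. At an unadjusted p under 0.05 it called 0 of 7, against 6.74% of all genes in either direction and 2.92% in the lower direction. All 7 estimates were below 0, with a median log2 difference of -0.28, against a median of 0.012 over all genes, of which 46% were below 0. For none of the 7 did the treated arrays lie wholly on one side of the vehicle arrays, which 12.8% of all genes did. A lower level with benzyl acetate was thus not established, and in bulk tissue fewer class II cells and less class II RNA per cell cannot be told apart.

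Cd74, the invariant chain, stood at 5.38, 5.86 and 5.70 in vehicle replicates 1, 2 and 3 and at 5.62, 4.76 and 5.51 in benzyl acetate replicates 1, 2 and 3. Benzyl acetate replicate 2 was the lowest of the 6, and the other treated animals lay within the vehicle range. The group means were 5.64 ± 0.24 (SD, n = 3) for vehicle and 5.30 ± 0.47 (SD, n = 3) for benzyl acetate, a log2 difference of -0.35 (95% interval -0.98 to 0.28; adjusted p = 0.831 in limma).

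RT1-Da, the single alpha chain of the RT1-D molecule, stood at 2.79, 3.18 and 3.34 with vehicle and 2.95, 2.30 and 2.81 with benzyl acetate. Here too benzyl acetate replicate 2 was lowest, and the other 2 treated animals lay between the lowest and the middle vehicle animal. The log2 difference was -0.42 (-0.96 to 0.12; adjusted p = 0.775 in limma). A dimmer RT1-Da probe followed the first closely across the arrays (Pearson r = 0.98) and differed by -0.52 (-1.13 to 0.095). RT1-Db1, a beta chain that pairs with it, had 5 detected probes, and the brightest stood at 2.42, 3.07 and 2.98 with vehicle and 2.99, 2.05 and 2.58 with benzyl acetate. The groups overlapped over most of their range, and the difference was -0.28 (-0.98 to 0.41; adjusted p = 0.875 in limma).

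RT1-Bb, the beta chain of the RT1-B molecule, had the largest estimate of the 7. By its brightest probe it stood at 2.80, 3.57 and 3.36 with vehicle and 2.68, 2.31 and 3.05 with benzyl acetate. Of the treated animals, replicates 1 and 2 lay below all vehicle animals and replicate 3 lay among them. The log2 difference was -0.56 (-1.21 to 0.080), a 1.48-fold difference with an adjusted p of 0.757 in limma. The alpha chain that pairs with it, RT1-Ba, was not measured. Its 1 probe was at -8.28 to -7.83 on all 6 arrays and well above background on 0 of them, whereas the lowest level of any probe well above background ran from -6.24 to -5.76 over the arrays. This says that this probe gave no usable signal in these 6 rats, and nothing about the RT1-Ba transcript.

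The RT1-DM chains load peptide in the endosome and are not polymorphic to the degree of the RT1-D and RT1-B chains. RT1-DMa stood at 1.74, 2.60 and 2.02 with vehicle and 1.85, 1.67 and 2.34 with benzyl acetate, a log2 difference of -0.17 (-0.83 to 0.49; adjusted p = 0.931 in limma). RT1-DMb stood at 1.68, 2.36 and 1.93 with vehicle and 2.17, 1.31 and 2.35 with benzyl acetate, a difference of -0.049 (-0.82 to 0.72; adjusted p = 0.990 in limma). In both genes the groups overlapped over most of their range. The sign of both estimates rested on single arrays, since without vehicle replicate 2 they were 0.069 for RT1-DMa and 0.13 for RT1-DMb, and without benzyl acetate replicate 2 that of RT1-DMb was 0.27.

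Ciita, the master co-activator, was dim and steady. Its brighter probe stood at -1.68, -1.52 and -1.45 with vehicle and -1.56, -1.78 and -1.59 with benzyl acetate, all 6 well above background. The groups overlapped, and the difference was -0.091 (-0.33 to 0.15; adjusted p = 0.884 in limma), the narrowest interval of the 7. The dimmer Ciita probe differed by -0.27 (-0.56 to 0.015), and the 2 probes had little in common across the arrays (r = 0.24). The SD of Ciita over the 6 arrays was 0.12, below the median of 0.15 over all genes. The other 6 members had SDs of 0.36 to 0.46, larger than those of 88.2% to 93.2% of genes, and among genes within 0.5 of the same mean level larger than those of 95.5% to 97.3%.

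**Figure D1:**
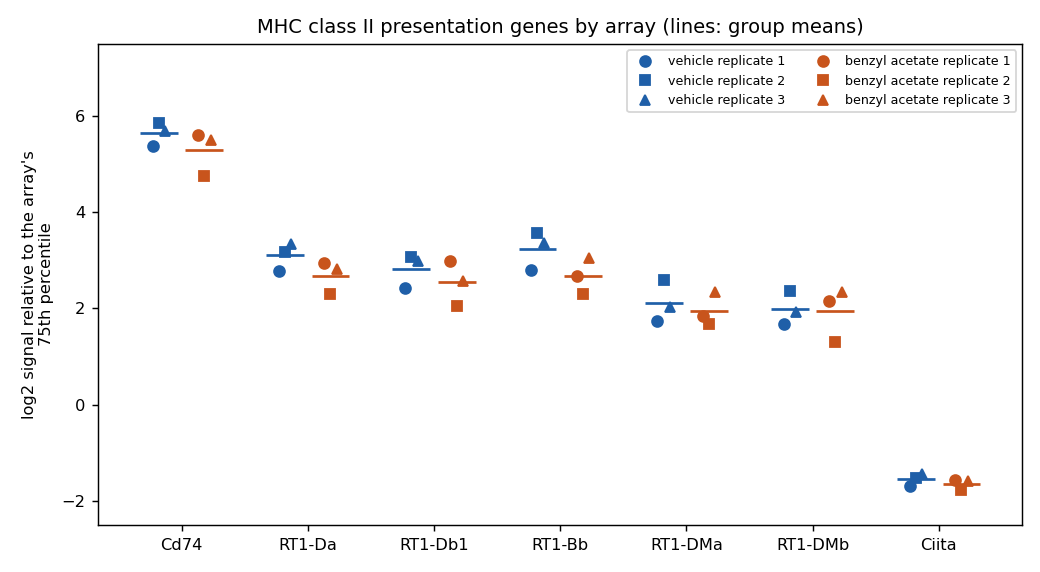
Level of each tested member by its brightest probe (y axis, log2 level as defined above) on the 3 vehicle arrays (blue) and the 3 benzyl acetate arrays (orange), with lines at the group means. Benzyl acetate replicate 2 (orange square) is the lowest of the 6 points for each of the 7 genes, and the groups overlap in every gene.

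Single animals weighed on these estimates in both directions. Vehicle replicate 1 was alone on its slide and scan, and the other 5 animals shared the second slide and scan. With the slide as a block, which leaves 2 vehicle and 3 treated animals to compare, RT1-Bb differed by -0.78 (-1.39 to -0.17) and RT1-Da by -0.58 (-1.14 to -0.017). These 2 of 7 members then had an unadjusted p under 0.05, where 5.89% of all genes did, and neither passed over all genes (adjusted p = 0.806 and 0.839 in limma). Benzyl acetate replicate 2 had the lowest level of all 6 arrays in 7 of 7 members, and vehicle replicate 2 the highest in 5 of 7. Averaged over the 7 members, each centred on its own mean, the levels were -0.18, 0.39 and 0.21 in vehicle replicates 1, 2 and 3 and 0.039, -0.54 and 0.092 in benzyl acetate replicates 1, 2 and 3. On this average the animals within a group spanned more than the distance between the group means. The median difference of the 7, -0.28 with all arrays, was -0.039 without benzyl acetate replicate 2 and -0.16 with vehicle replicate 2 left out. It was -0.48 when vehicle replicate 1 was omitted and -0.51 when benzyl acetate replicate 1 was. The Cd74 difference was -0.081, -0.24, -0.48 and -0.51 in the same 4 fits.

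The members moved together from animal to animal. Over the 6 arrays all 21 pairs of tested members had a positive Pearson r, with a median of 0.83, from 0.56 for RT1-Da with RT1-DMa to 0.97 for RT1-Da with Ciita. With each group's mean removed the median was 0.82, so the pattern was present within the groups as well. These points share animal, labelling and scan, and 6 of them describe these rats only, so no p is given. Leaving out benzyl acetate replicate 2 gave a median r of 0.68. Here and below Ciita is its brighter probe alone, with which its dimmer probe had an r of only 0.24.

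Over the 6 arrays the Pearson r of Cd74 was 0.94 with RT1-Db1 and 0.93 with RT1-Da (Spearman rho 0.94 for both), 0.91 with Ciita (rho 0.94), 0.86 with RT1-Bb (rho 0.83), 0.86 with RT1-DMb (rho 0.77) and 0.70 with RT1-DMa (rho 0.83). Among 12269 other genes with a symbol ordered by their r with Cd74, RT1-Db1 was number 43, RT1-Da number 63, Ciita number 128, RT1-Bb number 231, RT1-DMb number 246 and RT1-DMa number 1001. The median r over those genes was 0.060, and 3.83% of them had an r above 0.8. With group means removed the order changed, and RT1-DMb was first at 0.95, then RT1-Db1 at 0.94 and RT1-Da at 0.92. Without the 2 arrays farthest from the median of Cd74, benzyl acetate replicate 2 and vehicle replicate 2, which narrows the range of Cd74, r over the 4 left was 0.97 for Ciita, 0.95 for RT1-Db1 and 0.85 for RT1-Da. It was 0.50 for RT1-Bb, 0.35 for RT1-DMb and 0.22 for RT1-DMa. Without benzyl acetate replicate 2 alone, r was 0.77 for RT1-Bb, 0.58 for RT1-DMb and 0.68 for RT1-DMa. RT1-DMa had an r of 0.83 with RT1-DMb and 0.83 with RT1-Bb.

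**Figure D2:**
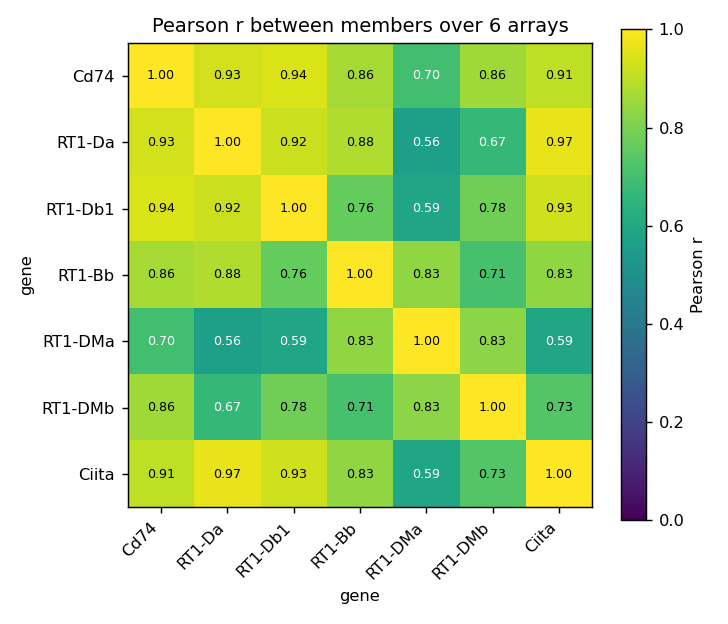
Pearson r over the 6 arrays for each pair of the 7 tested members (colour scale from 0 to 1, value in each cell). Cd74, RT1-Da, RT1-Db1 and Ciita form the block of highest values, and RT1-DMa has the lowest, down to 0.56 with RT1-Da. Ciita is shown by its brighter probe, with which its dimmer probe had an r of only 0.24.

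Genes among the 10 most similar in pattern to the mean of the members, among 3336 other genes detected on all arrays with an SD of at least 0.2, were Cacnb3 (r = 0.99), Cyria (0.98), Fign and Fermt1 (each 0.97), Cenpm, Sobp and Nxpe1 (each 0.96) and Il1rn and Cela2a (each 0.95), all over 6 arrays. Cacnb3 encodes a calcium channel beta subunit and Il1rn the interleukin-1 receptor antagonist. Without benzyl acetate replicate 2 the r of these genes ran from 0.86 to 0.97. Several of these genes were faint, where the lowest level well above background was -6.24 to -5.76 over the arrays. Cenpm ran from -5.53 to -4.53, Cela2a from -5.23 to -4.14, Nxpe1 from -4.69 to -4.13 and Fign from -4.53 to -3.91. With 6 points and this many candidates these r values only order the genes by likeness.

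The most uneven data lay in single probes of the polymorphic beta chains. RT1-Bb had 3 probes, and 2 of them, the one described above and a dimmer one that tracked it (r = 0.98) and differed by -0.58 (-1.17 to 0.0011), were well above background in all 6 rats. The third, A_44_P552452, was on in 1 rat only. It stood at -8.13, -8.02 and -8.12 with vehicle and at 3.42, -7.81 and -7.69 with benzyl acetate. In processed signal that is 10589 for benzyl acetate replicate 1 and 4 for each of the other 5 animals. The other RT1-Bb probes were not raised in that rat, at 2.68 and 1.93, where the other 5 rats had 2.31 to 3.57 and 1.65 to 2.78. By a rule of a gap of at least 1 log2 that is at least 60% of the range, this was the 1 two-state probe of the 17 probes of the members. Those 17 include the RT1-Ba probe, which was detected on 0 arrays. Of the 46477 probes detected on any array 2.65% met the rule, and of probes detected on all 6 arrays 1.02% did. A_44_P552452 entered no comparison of groups, because it was not detected on all 3 arrays of either group.

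The same rat stood out in RT1-Db1. Probe A_64_P134927 stood at 1.69, 2.28 and 2.19 with vehicle and 3.49, 1.23 and 2.00 with benzyl acetate. Within each array its distance from the brightest RT1-Db1 probe was -0.82 to -0.58 in 5 rats and 0.50 in benzyl acetate replicate 1, while that brightest probe was not raised there beyond the vehicle range. This probe was the only one of the 15 tested probes of the members with a difference above 0, at 0.19 (-1.19 to 1.57), and 14 were below 0. In the same rat a second RT1-Db1 probe, A_44_P130516, was also nearer the brightest probe, by -0.56 against -1.03 to -0.92 in the others.

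The dimmest RT1-Db1 probe divided the rats another way. A_44_P139882 stood at -1.23, -1.58 and -0.55 with vehicle and -1.85, -1.56 and -2.09 with benzyl acetate, and bore little relation to the brightest probe (r = 0.16). Its distance from the brightest probe took 2 levels: -3.65, -3.53 and -3.62 in vehicle replicates 1 and 3 and benzyl acetate replicate 2, and -4.65, -4.84 and -4.67 in vehicle replicate 2 and benzyl acetate replicates 1 and 3. Both levels occurred in both groups. Its group difference of -0.71 (-1.41 to -0.021) was the 1 of the 15 tested probes at an unadjusted p under 0.05, where 6.69% of 42355 probes were, and did not pass over all probes (adjusted p = 0.741 in limma). For comparison, the SD over arrays of the distance between probes of 1 gene had a median of 0.12 over 9080 probe pairs. It was 0.62 for this probe, larger than 98% of pairs, and 0.51 for A_64_P134927, larger than 96.6%. For the second probes of RT1-Da, RT1-Bb and RT1-DMa it was 0.11, 0.096 and 0.055, for that of Ciita 0.21, and for the other RT1-Db1 probes 0.25 (A_44_P130513) and 0.18 (A_44_P130516).

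RT1-Db2, a neighbouring beta chain gene whose sequence is close to that of RT1-Db1, also took 2 levels. Its 1 probe stood at 0.29, 1.32 and 1.32 with vehicle and 1.38, 0.37 and 0.35 with benzyl acetate. The gap between the 3 lower and the 3 higher animals was 0.95, 87.4% of the range and just under the limit of 1, and both levels occurred in both groups. The log2 difference was accordingly wide, at -0.28 (-1.26 to 0.70; adjusted p = 0.919 in limma). Transcripts of near-identical beta chains can bind 1 probe, so these signals cannot be assigned to 1 gene with certainty.

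**Figure D3:**
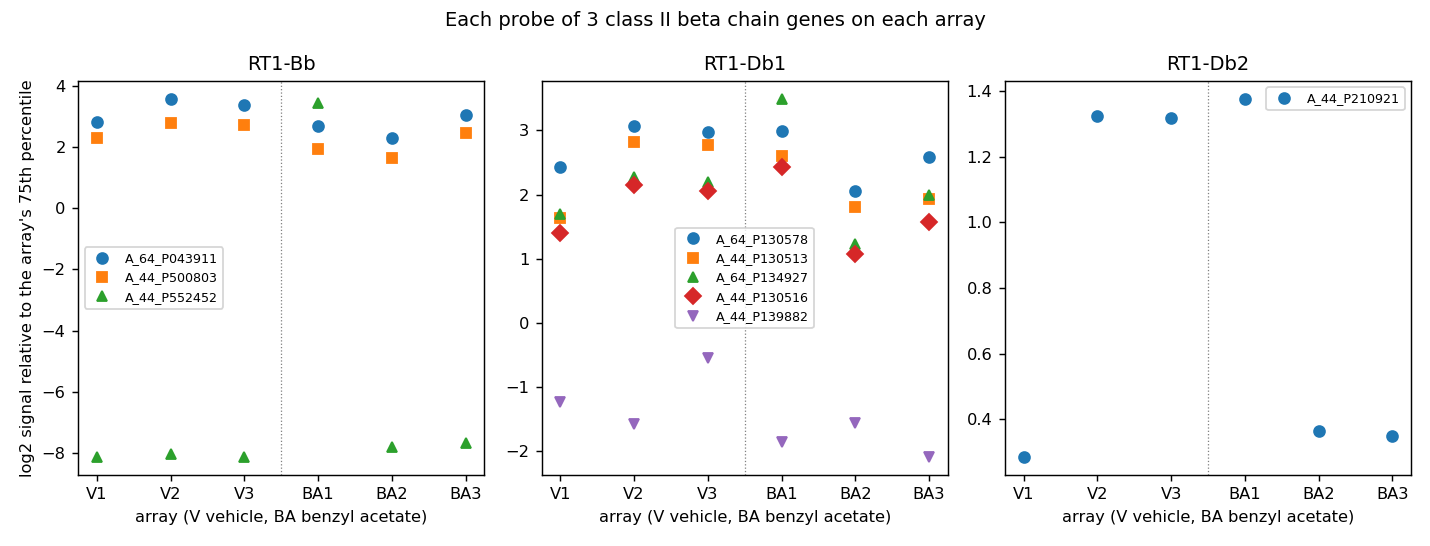
Level of every probe of RT1-Bb, RT1-Db1 and RT1-Db2 (y axis, log2 level as defined above; scales differ) on each array. A_44_P552452 of RT1-Bb is at 3.42 on 1 array and below -7.6 on the other 5, A_64_P134927 of RT1-Db1 is highest on the same array, and the RT1-Db2 probe has 3 arrays near 1.3 and 3 near 0.3.

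Such probes were not limited to the members. Of 50 other detected probes of RT1 genes, in 31 genes, 3 met the two-state rule, or 6%, against 2.65% of all detected probes. They were a probe of the class I gene RT1-A3, at -3.58 to -3.31 in 3 rats and -7.59 to -6.19 in the other 3, a probe of the class I gene RT1-CE10, at -4.48 in benzyl acetate replicate 3 and -0.88 to 0.30 in the others, and a faint probe of RT1-M5. The RT1-A3 and RT1-M5 probes were well above background on only 3 and 2 arrays. Whether the share among RT1 probes differs from that of all probes was not tested. Over all probes, benzyl acetate replicates 1 and 2 were alone on the high side in 197 and 208 two-state probes, and the other 4 animals in 40 to 77. No genotype was used here, and whether MHC haplotypes account for the probe patterns was not tested.

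**Figure D4:**
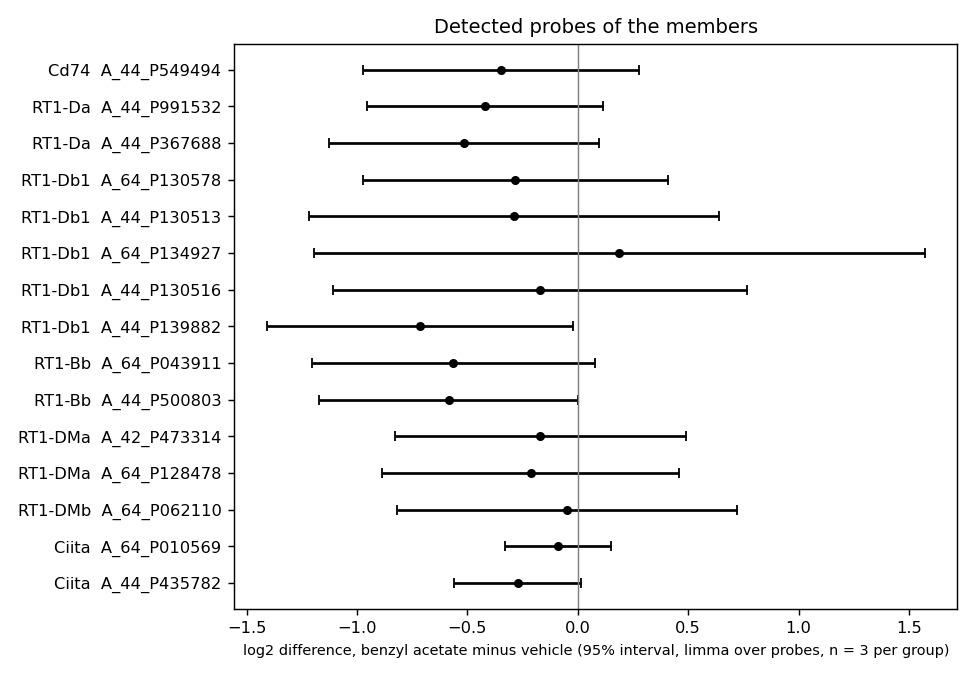
Log2 difference, benzyl acetate minus vehicle (x axis), for the 15 tested probes of the members with 95% intervals from limma over probes, 3 arrays per group. All but 1 estimate lie below 0, the RT1-Db1 probes disagree most, and only A_44_P139882 has an interval that stops short of 0.

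Of the other class II genes, 3 of 4 were tested and 0 passed over all genes. RT1-DOa and RT1-DOb form RT1-DO, which restrains RT1-DM chiefly in B cells. RT1-DOa, faint at -4.54, -5.03 and -4.63 with vehicle and -5.36, -5.48 and -5.35 with benzyl acetate, had separate groups and a difference of -0.66 (-1.01 to -0.32), with an adjusted p of 0.620 in limma. RT1-DOb ran from -2.05 in benzyl acetate replicate 2 to -0.23 in vehicle replicate 2, with overlapping groups and a difference of -0.28 (-1.63 to 1.07; adjusted p = 0.948 in limma). RT1-Ha was not above background on any array.

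Of the listed transcription factors of the class II genes and of Ciita itself, 9 of 10 were tested, 4 lower and 5 higher, with a median difference of 0.039 and 0 past the threshold. Rfxank, a subunit of the RFX complex, differed by 0.16 (-0.063 to 0.38) and Nfyc, a subunit of NF-Y, by 0.039 (-0.14 to 0.21). Spi1, the myeloid factor PU.1, had an unadjusted p under 0.05 at -0.44 (-0.73 to -0.16) and did not pass over all genes (adjusted p = 0.664 in limma). Interferon gamma is the main inducer of Ciita; Ifng itself was not above background on any array. Of its receptor and signalling genes 8 were tested, 6 lower and 2 higher, with a median of -0.057, and the receptor chain gene Ifngr1 differed by -0.085.

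Endosomal proteases and related genes that cut antigen and the invariant chain had 10 of 10 tested, 4 lower and 6 higher, with a median of 0.014. Ctsb and Ctsl, the cathepsins B and L, differed by 0.099 and 0.089, and 0 of the 10 had an unadjusted p under 0.05. Among genes that govern the turnover of surface class II, 4 of 4 were tested with a median of -0.0018. The ubiquitin ligase Marchf8, which marks class II for degradation, differed by 0.045 and Cd83, which protects it, by -0.20. For the class I pathway 17 of 20 were tested, 13 lower and 4 higher, with a median of -0.16, and B2m, the shared light chain, differed by -0.033 and RT1-A1, a classical heavy chain, by -0.043. Psmb8, an immunoproteasome subunit that lies among the class II genes, had an unadjusted p under 0.05 at -0.43 (-0.75 to -0.11; adjusted p = 0.696 in limma). Of the co-stimulatory genes 3 were tested, all with estimates below 0 and a median of -0.17. Cd40 differed by -0.42 (-0.88 to 0.032) and the adhesion molecule Icam1 by -0.084, and Cd80 was not above background on any array.

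Marker lists of kidney cells and of leukocytes were read in the same fit. The proximal tubule markers Slc34a1 and Miox stood at 8.44 to 8.68 and at 9.17 to 9.42 over the 6 arrays, and the 6 proximal tubule genes had a median difference of 0.0074. Endothelial markers had 5 of 5 tested with a median of 0.028, and podocyte markers 4 of 4 with a median of 0.046. The endothelial receptor gene Kdr had an unadjusted p under 0.05 at 0.25 (0.055 to 0.45) and did not pass over all genes (adjusted p = 0.700 in limma). Macrophage and monocyte markers had 10 of 11 tested, all 10 with estimates below 0 and a median of -0.13, and 0 had an unadjusted p under 0.05. Their summed signal, in units of the array's 75th percentile, was 94.9 to 109.9 with vehicle and 77.5 to 119.2 with benzyl acetate. Lyz2 and Tyrobp, the brightest, differed by -0.048 and -0.13. Of these 10 genes, 8 were lowest in benzyl acetate replicate 2. Cd163 was not above background on any array.

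Of the B cell markers 3 of 7 were tested, 2 lower and 1 higher, with a median of -0.44. Their summed signal was 0.98 to 2.17 with vehicle and 1.77 to 2.37 with benzyl acetate, highest in benzyl acetate replicate 2, where their mean log2 level was lowest. Pax5, a B cell transcription factor, differed by 0.61 (-0.24 to 1.46), and Cr2 was not above background on any array. Dendritic cell markers had 6 of 9 tested, 3 lower and 3 higher with a median of -0.12, and summed signals of 1.06 to 1.69 with vehicle and 0.85 to 1.16 with benzyl acetate. Clec10a differed by -0.45, Clec9a by -0.88 and Irf8 by 0.19, and Xcr1 was not above background on any array. T cell markers had 7 of 8 tested, all 7 estimates below 0 with a median of -0.81. Their summed signal was 1.35 to 3.76 with vehicle and 1.12 to 1.41 with benzyl acetate, and vehicle replicate 3 was highest in 7 of 7, whereas the members were highest there in 2 of 7. Cd2 was the 1 of these 7 at an unadjusted p under 0.05, where 6.74% of all genes were, at -1.77 (-3.33 to -0.20, adjusted p = 0.710 in limma). With benzyl acetate Cd2 stood at -6.04, -6.01 and -6.34, below the lowest level well above background on each of those arrays (-5.76, -5.92 and -5.85). It entered the fit through the vehicle arrays alone, so its difference and p depend on that filter and are not read as a result. The 4 pan-leukocyte genes all had estimates below 0, with a median of -0.35, and summed to 14.0 to 22.9 with vehicle and to at most 14.9 with benzyl acetate, lowest in benzyl acetate replicate 2 for 4 of 4. Over the 6 arrays the mean of the members had a Pearson r of 0.79 with the macrophage list and 0.69 with the pan-leukocyte list. It was 0.62 with the dendritic list, 0.34 with the T cell list and 0.31 with the B cell list. These values were not the highest, since r was 0.89 with the interferon gamma receptor and signalling genes. With the proximal tubule, endothelial and podocyte lists it was 0.37, 0.016 and -0.22, so the T and B cell values lay below that of the proximal tubule. The part of cell numbers in the low class II levels of benzyl acetate replicate 2 was not tested.

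**Figure D5:**
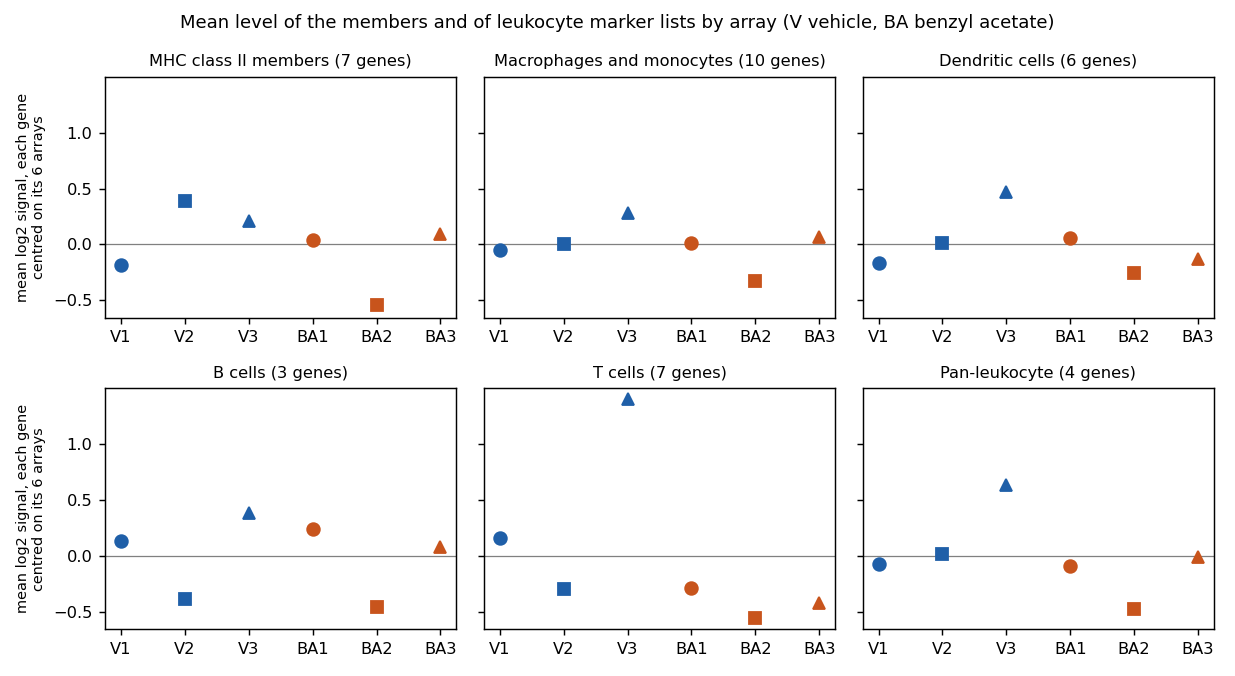
Mean log2 level by array of the 7 tested members and of 5 marker lists, each gene centred on its 6 arrays (y axis; blue vehicle, orange benzyl acetate). Benzyl acetate replicate 2 is lowest in all 6 panels, at -0.54 for the members, and vehicle replicate 3 is highest in the 5 marker lists, at 1.40 for T cells, but not in the members. For B cells the summed signal has another order, highest in benzyl acetate replicate 2.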

How the data were processed

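The labels give 2 groups of 3 rats, 1 array each. The authors deposited scanner tables of linear intensity. The submitters' processing notes name Agilent Feature Extraction 10.7 for them. Per the file headers the background had been subtracted from the processed signal. Its 75th percentile ran from 883 to 1057 over the arrays. The detection and outlier flags, 0 or 1, are other columns that the authors deposited. No spot was saturated. Between 69.0% and 72.0% of the 61537 non-control probes were well above background per array. The number of arrays limits the precision.

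Outlier-flagged spots were left out. Testing required detection well above background throughout 1 group or both, which 42355 probes met. Accessions, without version, were matched to RefSeq (GRCr8) for 28206 probes. A gene was its brightest tested probe. Limma 3.58.1 in R 4.3.3 (lmFit, eBayes, Benjamini-Hochberg over all genes, threshold 0.05) was checked on simulated data; Python 3.11.15 made the tables. Probes were also fitted singly, and the promoter strings searched were picked, both choices made after seeing the data. The array grid names an older build, rn4, so only promoter coordinates are given. The members and lists were chosen with earlier results of these data known. Named genes were all members, each list's 2 brightest genes, those with an unadjusted p under 0.05, and the 10 most alike in pattern; some that the rule names are not reported here, and the other RT1 probes were chosen after their values were seen. The treatment protocol counts 3 animals per group.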

Additional observations from a re-analysis of the deposited data

Results flagged for a closer look

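The RT1-Bb probe A_44_P552452, which entered no comparison, gave a signal in 1 animal above that of every vehicle animal. Its level was 3.42 in benzyl acetate replicate 1 and -8.13 to -7.69 in the other 5 animals, where it was not well above background.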

How the results depend on the processing

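Over 17 alternative fits, 116 of 119 member differences kept their sign, and no adjusted p fell below 0.462. This count overstates the steadiness of the signs. Changing the detection filter, keeping outlier spots, the replicate block and the deposited values left the members' estimates the same or nearly so. The slide block gave the same values as omitting vehicle replicate 1. The 3 changes of sign came with single-array omissions: RT1-DMa at 0.069 and RT1-DMb at 0.13 without vehicle replicate 2, and RT1-DMb at 0.27 without benzyl acetate replicate 2. Over these omissions RT1-DMa ran from -0.36 to 0.069 and RT1-DMb from -0.25 to 0.27. In the fit over single probes, an alternative chosen after seeing the data, the RT1-Db1 probe A_64_P134927 stood at 0.19 and the other 14 probes were below 0. Leaving out 1 array moved the members' median from -0.51 to -0.039 and the median r from 0.68 to 0.90. With each gene's lowest-signal probe the median r was 0.55. Genes called over the whole table were 0, but 2 with normexp background correction and 0 to 2 when 1 array was left out (2 without benzyl acetate replicate 1); no member was among them. The slide as a block, which takes out vehicle replicate 1, gave a median of -0.48 and brought RT1-Bb and RT1-Da to an unadjusted p under 0.05. Same-numbered animals did not deviate together (r = -0.11, 0.0075 and 0.00095; 1 of 6 arrays was closest to its own number), and with the replicate block 0 genes were called and the median was -0.28. RT1-Ba, below background on all arrays, was not tested.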
